A study of Mus musculus with 6 samples.

Results

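The genes described here encode ligands and receptors of the epidermal growth factor (EGF) and hepatocyte growth factor (HGF) systems. They were taken from a named list of 10 genes, with 1 probe set per gene that carried a single gene symbol in the platform annotation. Of the 10 listed genes 9 had such a probe set, and none of the 9 had more than 1, among 19938 genes tested in all. The listed genes comprised 3 receptors (Egfr, Erbb4 and Met), 6 EGF family ligands (Egf, Tgfa, Hbegf, Areg, Ereg and Btc) and Hgf, and Areg was not analysed here.

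Expression was measured in enterospheres, free-floating spheres grown from dissociated gut muscle of newborn (P0) C57BL/6 mice and used as a source of neural progenitor cells of the enteric nervous system. The T3 group held 3 samples kept for 1 day with 100 nM triiodothyronine (the labels write nm, read here as nM), the thyroid hormone that binds nuclear receptors, and the control group held 3 untreated samples. For every sample the gut muscle of 3 mice was pooled, and 1 array was hybridised per sample. All samples had been grown with added EGF at 10 ng/mL and fibroblast growth factor at 20 ng/mL, for 4 and then another 5 days, and had then been washed and kept for 1 day in a differentiation medium for which the labels list neither factor, before some of the dishes received T3. The comparison asks which genes respond to T3 in spheres kept in that medium.

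EGF family ligands are made as membrane-anchored precursors, are released by metalloproteases and bind receptor tyrosine kinases of the ErbB family. EGF, transforming growth factor alpha and amphiregulin bind the EGF receptor, whereas heparin-binding EGF, betacellulin and epiregulin bind both the EGF receptor and ErbB4. HGF is a secreted protein that has to be cleaved to become active and binds the receptor tyrosine kinase MET. Both kinds of receptor signal through adaptor proteins to the Ras-ERK and PI3K pathways, and the ERK pathway induces its own inhibitors, among them Sprouty proteins and dual-specificity phosphatases. EGF is a standard mitogen for neural progenitors in culture.

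The levels below are normalized log2 signals of single probe sets, and those of different genes are not compared. Array medians lay between 6.09 and 6.15, and 3 arrays per group limit the precision. As a check of the labelled cell type, the 7 measured progenitor markers were placed within the control arrays. Their mean control signals lay between the 93.6th percentile (Ednrb) and the 99.2nd (Ngfr), although probe affinity also sets such percentiles. Fibroblast markers ran from the 79.8th (Thy1) to the 98.9th (Dcn) and neuron markers from the 73.4th (Prph) to the 98.2nd (Stmn2). High percentiles thus do not single out progenitors. None of the 7 progenitor markers passed the test for a change with T3. The mean level of these 7 was 11.30 to 11.34 on the control arrays and 11.23 to 11.33 on the T3 arrays. Ret, with a log2 change of 0.26, and Sox2, with one of -0.23, had the smallest p (adjusted p = 0.139 and 0.160, limma). Values of the groups did not overlap for 4 of the 7, against 19.5% of all genes. Of the 7 changes 6 were below 0, against 46.7% of all genes. RNA was taken from whole spheres, in which fewer cells of a type and less RNA per cell cannot be told apart.

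The sequences of 3 promoters are shown because they belong to the genes that changed with T3: the 250 bases before the annotated start of Egfr (chr11:16751953-16752202, plus strand), Met (chr6:17463707-17463956, plus strand) and Btc (chr5:91402995-91403244, minus strand), from RefSeq on build GRCm38.p6, each written 5′ to 3′ in the direction of the gene. Capitals mark matches on either strand to the GC box GGGCGG, a binding motif of Sp1-type factors; the motifs AGGTCA (the core motif of thyroid hormone receptors) and TATAAA (the TATA box) were searched in the same way.
Egfr: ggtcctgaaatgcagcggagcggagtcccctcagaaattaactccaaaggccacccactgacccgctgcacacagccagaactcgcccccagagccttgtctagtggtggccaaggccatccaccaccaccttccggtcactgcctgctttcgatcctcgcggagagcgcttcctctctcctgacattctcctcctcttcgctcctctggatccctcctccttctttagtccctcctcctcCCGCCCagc
Met: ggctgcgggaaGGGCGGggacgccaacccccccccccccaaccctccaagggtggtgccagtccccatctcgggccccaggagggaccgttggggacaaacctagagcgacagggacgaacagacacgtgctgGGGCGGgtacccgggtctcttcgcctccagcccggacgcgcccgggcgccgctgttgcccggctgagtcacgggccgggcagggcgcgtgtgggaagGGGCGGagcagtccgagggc
Btc: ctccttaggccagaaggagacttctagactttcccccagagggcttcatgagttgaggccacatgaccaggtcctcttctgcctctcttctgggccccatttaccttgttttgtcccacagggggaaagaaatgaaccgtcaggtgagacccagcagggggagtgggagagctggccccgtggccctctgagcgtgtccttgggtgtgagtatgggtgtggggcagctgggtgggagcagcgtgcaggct
Met held 3 GC boxes and 74% G or C, Egfr held 1 GC box and 60.8% G or C, and Btc held no GC box and 59.6% G or C. The median over all 32851 promoter windows in the table was 52.4% G or C, and 32.7% of the windows held a GC box. AGGTCA was in none of these 3 windows, and 14% of all windows held it on either strand. TATAAA was also in none of the 3, against 12.4% of all windows. These are letters in a short window and say nothing about binding elsewhere in the genes.

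Among the receptors, Egfr and Met were lower in T3 samples and Erbb4 did not pass the test. Of the 9 measured genes 3 were called lower (Egfr, Met and Btc) and 0 higher at an adjusted p under 0.05 (limma), where 0.823% of all genes tested were called lower and 2.28% higher. At an unadjusted p under 0.05 there were 4, against 13.7% of all genes. The 3 became 1, Egfr, when T3 array 2, T3 array 3 or control array 1 was left out, and 2, Egfr and Met, when control array 2 or 3 was. The control and T3 values did not overlap for 4 of the 9 genes, against 19.5% of all genes. The median change over the 9 genes was 0.02 on the log2 scale, against 0.01 over all genes tested. The listed genes were chosen with earlier results of these data known, so these counts and shares describe the list and do not test it.

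Egfr, the EGF receptor (probe set 10374366), had log2 levels of 9.61, 9.66 and 9.76 on control arrays 1, 2 and 3 and of 9.002, 9.001 and 9.110 on T3 arrays 1, 2 and 3. All 3 T3 values lay below all 3 control values, with a gap of 0.50 between the nearest arrays, and the spread within each group was small. The group means were 9.68 ± 0.08 in controls and 9.04 ± 0.06 with T3 (SD, n = 3 each), a log2 change of -0.64 ± 0.07 (SE) or 1.56-fold lower signal, with adjusted p = 0.00402 (limma). Its call held without any 1 array, with adjusted p from 0.00886 to 0.0258.

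Met, the HGF receptor (probe set 10536505), had log2 levels of 7.78, 7.42 and 7.49 in controls and of 6.97, 6.64 and 6.79 with T3. The groups were again apart, by 0.46, but the arrays of a group differed more than for Egfr, and the array numbered 1 was the highest in both groups. The log2 change was -0.76 ± 0.12 (SE), 1.70-fold lower signal, from 7.56 ± 0.19 to 6.80 ± 0.17 (SD, n = 3 each; limma, adjusted p = 0.0125). By a small margin Met did not pass when T3 array 2, T3 array 3 or control array 1 was left out, at adjusted p values of 0.0515, 0.0515 and 0.0509.

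Erbb4, which binds neuregulins as well as several EGF family ligands (probe set 10355278), gave log2 levels of 4.82, 4.82 and 5.07 in controls and of 5.11, 4.85 and 5.02 with T3. The groups overlapped. Its change was 0.09 on the log2 scale with a 95% confidence interval from -0.14 to 0.32 (adjusted p = 0.823, limma), and its mean control signal stood at the 31.3rd percentile of the control arrays, so that it is not known to be above background.

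**Figure D1:**
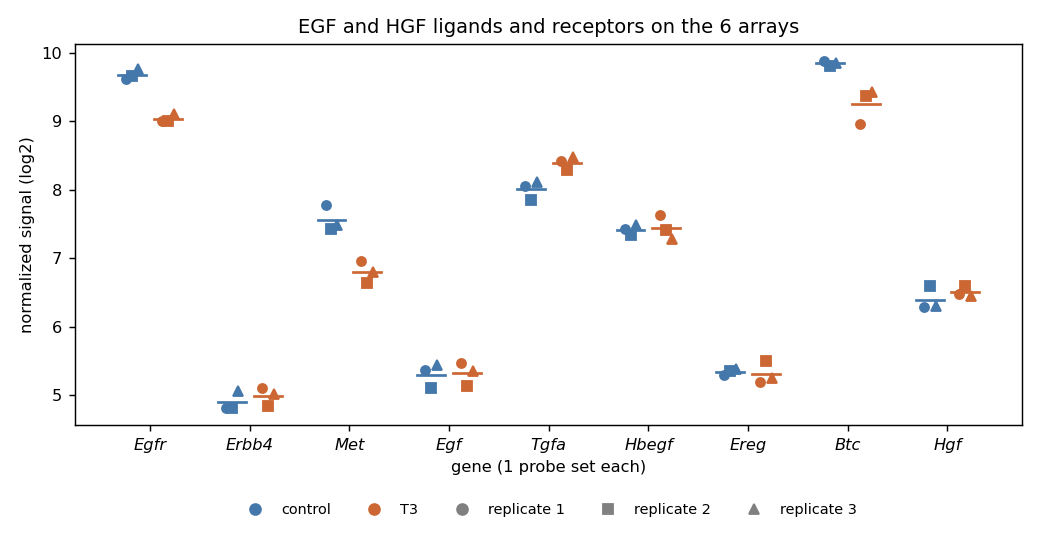
Normalized log2 signal (vertical axis) of the 9 measured genes on each of the 6 arrays, controls in blue and T3 in orange, with symbols for the replicate number and a line at each group mean (n = 3). The T3 values of Egfr, Met and Btc all lie below their control values, those of Tgfa all lie above, and the groups of the other genes overlap.

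Among the ligands, betacellulin was the gene that changed. Btc (probe set 10531274) had log2 levels of 9.87, 9.81 and 9.84 in controls and of 8.96, 9.37 and 9.42 with T3. The controls were tightly grouped and all T3 arrays were lower by at least 0.38, with T3 replicate 1 the lowest. The change was -0.59 ± 0.12 (SE) on the log2 scale, a 1.51-fold lower signal, from 9.84 ± 0.03 to 9.25 ± 0.26 (SD, n = 3 each; limma, adjusted p = 0.0372). The call was kept without T3 replicate 1, at a log2 change of -0.44 and adjusted p = 0.0317, and lost when T3 array 2, T3 array 3 or any control array was left out (adjusted p from 0.0515 to 0.155).

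Tgfa, another ligand of the EGF receptor (probe set 10539692), differed in the opposite direction but did not pass. Its log2 levels were 8.06, 7.85 and 8.12 in controls and 8.42, 8.28 and 8.48 with T3. All T3 arrays were above all controls, by at least 0.17. The change was 0.39 ± 0.09 (SE), with a 95% confidence interval from 0.17 to 0.60 and adjusted p = 0.0715 (limma). It passed when the dimmest 50% of genes were left out (adjusted p = 0.0341), with trend and robust fitting (0.0397) and with array quality weights (0.0103). Those weights leaned on control array 1 (weight 6.18, against 0.414 and 0.421 for control arrays 2 and 3). With any 1 array left out Tgfa did not pass (adjusted p from 0.0775 to 0.244).

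Hbegf, heparin-binding EGF (probe set 10458340), had log2 levels of 7.42, 7.34 and 7.49 in controls and of 7.63, 7.41 and 7.28 with T3. The T3 values spanned those of the controls, and the 95% confidence interval of the change ran from -0.20 to 0.25. Egf itself (probe set 10502105), the factor that had been added to the growth medium, gave 5.37, 5.10 and 5.45 in controls and 5.47, 5.14 and 5.36 with T3, and Ereg, epiregulin (probe set 10523175), gave 5.30, 5.35 and 5.38 in controls and 5.19, 5.50 and 5.25 with T3. In both the groups overlapped, with confidence intervals from -0.25 to 0.28 for Egf and from -0.24 to 0.18 for Ereg. The mean control signals of Egf and Ereg stood at the 37.7th and 38.4th percentile of the arrays, and whether they were above background is not known. Adjusted p of these 3 ligands was at least 0.960 (limma), and other scalings or sets of arrays gave each of them the opposite sign.

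Hgf, the ligand of MET (probe set 10519857), did not pass. Its log2 levels were 6.29, 6.59 and 6.30 in controls and 6.48, 6.59 and 6.45 with T3, and the array numbered 2 was the highest in both groups. The change was 0.11, with a 95% confidence interval from -0.11 to 0.34 (adjusted p = 0.742, limma). These intervals do not show that the 6 genes without a call kept their level, but they set the size of change that the arrays leave possible.

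**Figure D2:**
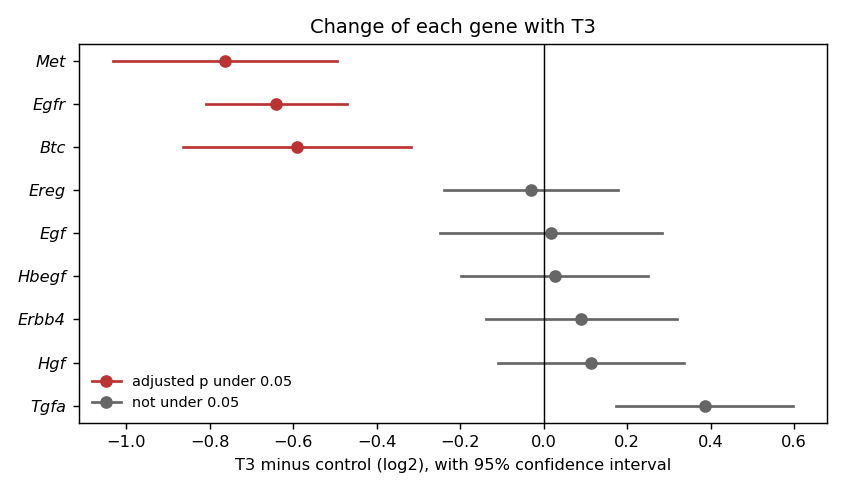
Change of each gene, T3 minus control, on the log2 scale (horizontal axis) with its 95% confidence interval from limma (3 arrays per group), ordered by size. The intervals of Met, Egfr and Btc end at -0.50, -0.47 and -0.32, and that of Tgfa, which did not pass after adjustment, begins at 0.17.

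**Figure D3:**
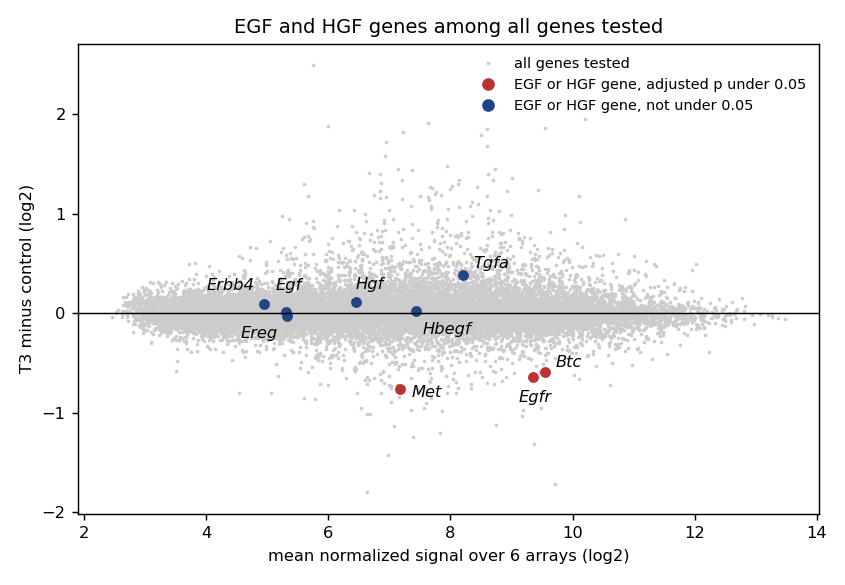
T3 minus control on the log2 scale (vertical axis) against the mean log2 signal over the 6 arrays (horizontal axis) for all 19938 genes tested (grey), with the 9 EGF and HGF genes named. Met, Egfr and Btc (red) lie at the lower edge of the cloud, with ranks of 150, 254 and 301 by size of change, and Erbb4, Egf and Ereg sit among dim genes with changes near 0.

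Some genes followed the 3 lowered genes closely over the 6 arrays. Among 3411 other genes whose levels spanned at least 0.5 on the log2 scale, the 3 of highest Pearson r to Egfr were Sorbs2 (r = 0.998), which encodes a cytoskeletal adaptor, and Ccn1 (0.998) and Ccn2 (0.996), which encode matricellular proteins. Those nearest to Met were the collagen genes Col12a1 (0.976) and Col6a3 (0.971) and the RNA gene Dubr (0.971). Those nearest to Btc were S100a16 (0.998), of the S100 calcium-binding proteins, the transcription factor gene Nfil3 (0.997) and the myelin gene Opalin (0.995). All 9 were lower with T3, with log2 changes from -1.72 for Ccn2 to -0.36 for Dubr. That shared direction was fixed by choosing genes of high positive r to lowered genes. The points share 6 arrays in 2 groups, and so many genes were searched that values this high are a description of these arrays.

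The other genes of these pathways were described through 8 lists with 75 entries, of which 69 genes were measured. These lists, too, were chosen with earlier results of these data known, so the shares below describe them and do not test them. Of the 69, 2 were called higher, 4 lower and 63 did not pass, so that 8.70% were called against 3.10% of all genes tested. These counts of 2 and 4 rest on single arrays: they were 1 and 2 with T3 array 1 left out, 1 and 0 for T3 array 2, 1 and 1 for T3 array 3, 0 and 0 for control array 1, 2 and 3 for control array 2, and 2 and 1 for control array 3. Values of the groups did not overlap for 34.8% of the 69, against 19.5% of all genes. Of the 69 changes 65.2% were below 0, against 46.7% of all genes, and the median log2 change was -0.06 against 0.01. The shares below 0 depend on the scaling. The median over all genes was 0.04 with arrays centred on their medians and -0.02 on their 75th percentiles. Of the 7 other ErbB genes, 3 changes were below 0 as reported, 1 with median centring and 4 with 75th percentile centring. For the 6 ligand shedding genes the count stayed at 4. Few of the 69 were dim: 1 was below the 25th percentile of the control arrays, against 3310 of all 19938 genes. With the dimmest 50% of genes left out, 745 of 9969 genes were called, and of the pathway genes 1 was called higher and 5 lower. How far signal level accounts for the higher shares was not tested.

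The other ErbB receptors and ligands included 1 gene that rose. Nrg2, which encodes a neuregulin and so a ligand of ErbB3 and ErbB4, had log2 levels of 6.62, 6.65 and 6.67 in controls and of 7.06, 7.18 and 7.0 with T3. The groups were apart and the controls close together, and the change was 0.43 ± 0.07 (SE; adjusted p = 0.0188, limma), a call that failed when T3 array 2 (adjusted p = 0.0857) or control array 1 (0.104) was left out. Erbb2, the coreceptor without a ligand of its own, changed by -0.02 ± 0.06 (SE), and Erbb3, the neuregulin receptor of neural crest and glial cells, by 0.01 ± 0.07 (SE). Nrg1 had a change of 0.11 (adjusted p = 0.674). The 6 genes of this list other than Nrg2 did not pass, and the list median was 0.01.

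Around HGF activation, Spint1 rose. It encodes a membrane-bound inhibitor of the proteases that activate HGF, among them matriptase and the HGF activator. Its log2 levels were 7.55, 8.24 and 7.56 in controls and 9.004, 8.743 and 8.844 with T3. Control replicate 2 stood above the other controls, and all T3 arrays were still higher. The change was 1.08 ± 0.18 (SE), a 2.12-fold higher signal (adjusted p = 0.0156, limma), and 1.31 with adjusted p = 0.000967 without control replicate 2. Spint1 did not pass when T3 array 1 (adjusted p = 0.0693), T3 array 3 (0.0573) or control array 1 (0.0753) was left out. St14, the matriptase gene, had a change of 0.27 (adjusted p = 0.104), and the other 6 of the 7 measured genes of this list did not pass.

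Of 6 genes of ligand release, 1 fell and 5 did not pass. Adam12, a metalloprotease reported to release heparin-binding EGF, had log2 levels of 9.03, 9.04 and 9.02 in controls and of 8.66, 8.53 and 8.59 with T3. The groups were well apart, and the change was -0.44 ± 0.07 (SE; adjusted p = 0.0131, limma). Leaving out T3 array 2, T3 array 3 or control array 1 ended this call, with adjusted p reaching 0.0738. Rhbdf2, which helps the sheddase ADAM17 to mature, had a change of 0.31 (adjusted p = 0.270, limma). Its relative Rhbdf1 had one of -0.19, in the opposite direction, with the same adjusted p. None of the 4 coreceptors and partners was called, and Nrp1, at -0.26, and Plxnb1, at 0.20, had the smallest p (adjusted p = 0.104 and 0.397).

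Of 12 feedback inhibitors, 2 fell, 0 rose and 10 did not pass. The changes of 10 of the 12 were below 0 (9 with arrays centred on their medians), with a median of -0.21. Spry4, a Sprouty inhibitor of ERK signalling, had log2 levels of 10.37, 10.50 and 10.50 in controls and of 10.06, 10.00 and 10.06 with T3. The groups did not overlap, and the change was -0.41 ± 0.07 (SE; adjusted p = 0.0191, limma). Dusp5, a phosphatase of nuclear ERK, changed by -0.38 ± 0.08 (SE; adjusted p = 0.0467). Of these calls, that of Spry4 failed in 4 of the 6 fits that left out an array (T3 array 2 or 3, control array 1 or 3, with adjusted p reaching 0.0927) and that of Dusp5 in all 6 (0.0818 to 0.142). Dusp5 also did not pass with arrays centred on their medians (adjusted p = 0.0875) or with each probe set tested on its own (0.0517). Dusp4 and Dusp6, which also act on ERK, had changes of -0.27 and -0.25 with adjusted p of 0.194 and 0.200, and Spry2 one of -0.31 (adjusted p = 0.310). Errfi1 and Lrig1 changed by only -0.06 and -0.02, and the 2 changes above 0 were those of Spred2 (0.09) and Lrig2 (0.06).

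Among 12 immediate early and ERK-responsive genes, 1 fell and 11 did not pass, with a median of -0.14 and 10 of 12 changes below 0 (9 with arrays centred on their medians or with array quality weights). Etv4, an ETS transcription factor induced by receptor tyrosine kinase signalling, had log2 levels of 6.88, 6.84 and 7.12 in controls and of 6.15, 6.20 and 6.58 with T3. The array numbered 3 was the highest in each group, and the groups did not overlap. The change was -0.64 ± 0.13 (SE; adjusted p = 0.0348, limma), a call that failed when T3 array 1 or 2 or control array 1 or 3 was left out, with adjusted p reaching 0.133. Its relative Etv5 had a change of -0.25 (adjusted p = 0.206). Egr1, Fos and Myc changed by -0.22, -0.03 and -0.16 and did not pass (smallest adjusted p 0.473), and Fosl1 had one of 0.29 (adjusted p = 0.169).

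The signalling core gave no call. None of 10 adaptors and docking proteins (median -0.06) and none of 11 genes of the Ras-ERK and PI3K core (median -0.0041) passed, with 0 and 1 gene at an unadjusted p under 0.05. Of these, Map2k1, an ERK pathway kinase, had the smallest p, with a change of -0.30 ± 0.07 (SE; adjusted p = 0.0678, limma). Nras had a change of -0.13, and the docking protein gene Gab1 and the ubiquitin ligase gene Cblb had changes of -0.15 each; the smallest adjusted p of these 3 was 0.462. The other 6 genes of the core list were not analysed here.

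**Figure D4:**
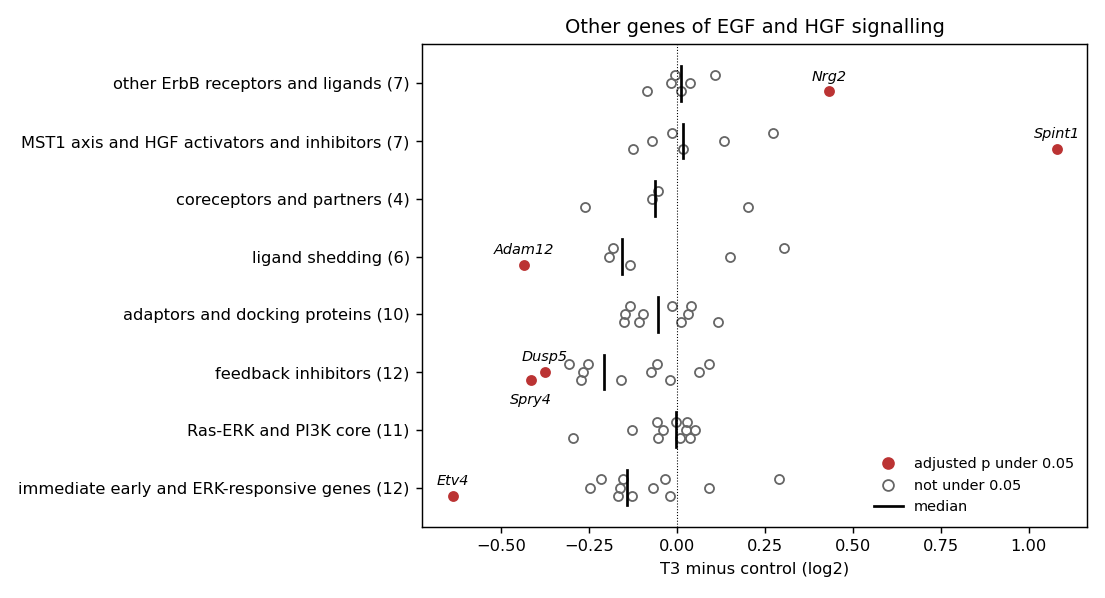
T3 minus control on the log2 scale (horizontal axis) for the 69 measured genes of 8 lists (vertical axis, number of genes in brackets), with called genes filled and named and a black line at each list median. The medians of feedback inhibitors (-0.21), ligand shedding (-0.16) and immediate early genes (-0.14) lie furthest below 0, and Spint1 at 1.08 has the largest change.

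Some markers of other cell types were called, in both directions. Of all genes tested 3.10% were called. The marker lists, too, were chosen with earlier results of these data known, so their counts describe them and do not test them. Of 6 smooth muscle markers 2 fell, Tagln at -0.72 and Acta2 at -0.38, and 2 rose, Myh11 at 0.60 and Myocd at 0.54; the mean level of the list was 7.20 to 7.35 in controls and 7.30 to 7.39 with T3. Of 8 fibroblast and mesenchyme markers Thy1 rose, at 1.24, and 7 did not pass, among them Pdgfrb at -0.26 (adjusted p = 0.0977, limma). The mean level, which includes Thy1, was 10.58 to 10.66 in controls and 10.68 to 10.73 with T3. Of the 8 changes 5 were below 0, with a median of -0.04. Of 6 neuron markers Prph at 0.94 and Snap25 at 0.33 rose, and the mean level was 10.17 to 10.36 in controls and 10.49 to 10.54 with T3. Kdr, an endothelial receptor, fell by 0.41 as the 1 called of 6 endothelial markers (mean level 5.69 to 5.86 in controls and 5.69 to 5.97 with T3), and Ano1, a chloride channel of interstitial cells of Cajal, rose by 0.43 as the 1 called of 3 such markers (9.95 to 10.12 and 10.19 to 10.26). Glial markers (4 genes, 9.90 to 10.11 and 9.93 to 10.02) and mesothelial markers (5 genes, 5.71 to 5.87 and 5.77 to 6.29) gave no call. Of these 9 marker calls, those of Tagln, Thy1 and Prph held with any 1 array left out. Those of Acta2, Snap25 and Myh11 failed in all 6 such fits, and Ano1 passed in 1, Myocd in 2 and Kdr in 3 of them. The highest adjusted p over these fits was 0.165 (limma), for Acta2. Centring the arrays on a percentile also ended the calls of Acta2 (adjusted p = 0.0564 for the median and 0.0519 for the 75th percentile), Snap25 (0.0640, 75th percentile) and Myh11 (0.0907, 75th percentile), and Myh11 did not pass with each probe set on its own (0.0540). The part of these cell types in the results on Egfr, Met and Btc was not tested. None of 8 epithelial markers (5.11 to 5.32 in controls and 5.17 to 5.26 with T3) or 6 macrophage markers (5.18 to 5.29 and 5.18 to 5.21) was called, and of the former Epcam and Krt20 were below the 25th percentile of the control arrays.

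The calls differed in how far they depended on the processing. Egfr and Met passed under all 10 other settings that kept the 6 arrays, with log2 changes of -0.67 to -0.58 and of -1.003 to -0.73. Btc passed under 8 of the 10 and did not pass with the arrays centred on their medians (adjusted p = 0.0579, limma) or with the replicate number as a block. Among these settings, only rescaled arrays and array weights moved the log2 changes of the 3 genes. As each had 1 probe set, the other probe set rules could not alter its values. The -1.003 of Met came with array quality weights, which gave control array 1 a weight of 6.18 and control arrays 2 and 3 weights of 0.414 and 0.421. By p, Egfr, Met and Btc ranked 86, 232 and 516 of the 19938 genes.

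**Figure D5:**
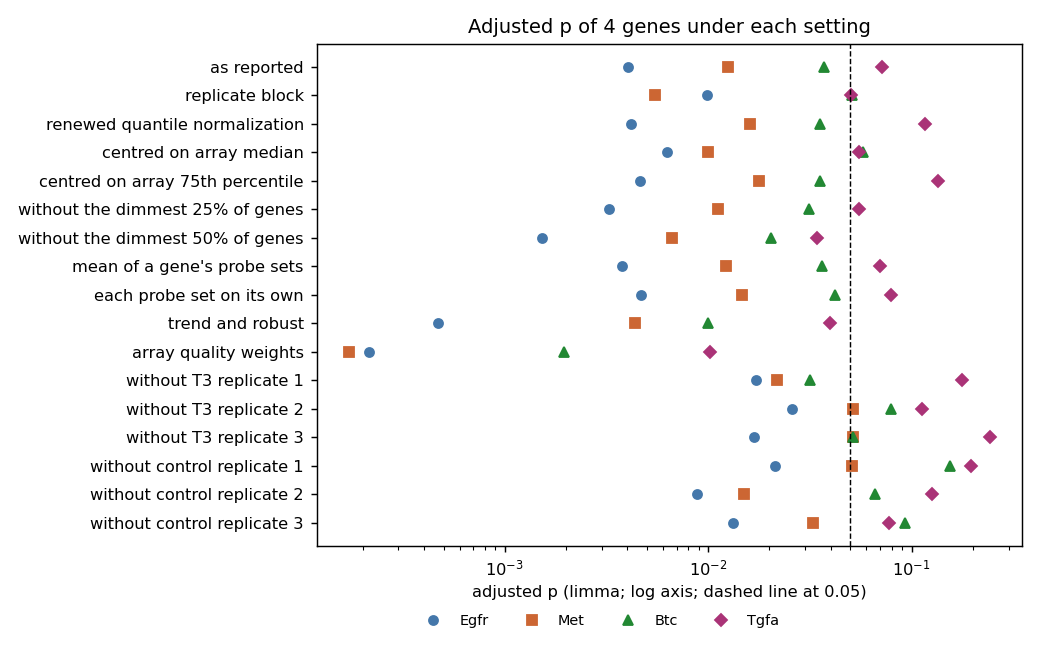
Adjusted p from limma (horizontal log axis, dashed line at 0.05) of Egfr, Met, Btc and Tgfa as reported, under 10 other settings and without each array in turn (vertical axis). All points of Egfr lie left of the line, with a highest value of 0.0258; those of Met exceed it only when T3 array 2, T3 array 3 or control array 1 is left out; and Btc and Tgfa lie on both sides.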

How the data were processed

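Total RNA of 6 enterosphere samples, 3 with T3 and 3 without, was measured on 1 mouse gene expression array each. The authors deposited log2 values for 35556 probe sets, made with RMA and Partek version 6.5 per the submitters' processing notes; the sources used here do not give their settings or the genome build. RMA as usually run aligns array distributions, and background compresses differences of dim genes. The values carry no detection calls. Whether the samples came from separate preparations is not stated beyond the 3 mice each, so p-values cover only the spread among these samples, which may be technical.

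The platform annotation held 1 symbol for 21789 probe sets and several for 1621, and 12146 were not listed; only the first kind was used, and a gene's probe set of highest mean represented it (19938 genes). T3 minus control was fitted with limma 3.58.1 in R 4.3.3 (lmFit, eBayes), as a two-sided test adjusted by Benjamini-Hochberg over all genes, with no filter; SE is that of the fit. The procedure was tested on simulated data. Control-array percentiles are over all probe sets. Promoters came from RefSeq (build GRCm38.p6).

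The genes and lists were chosen with earlier results of these data known. By rule the text names all 10 genes, the called genes and the 2 of smallest p of each pathway list, the 3 genes most like each called one, and, of each marker list, every called gene and up to 2 of smallest p. Erbb2, Erbb3, Rhbdf1, Dusp4, Dusp6, Spry2, Errfi1, Lrig1, Spred2, Lrig2, Etv5, Egr1, Fos, Myc, Epcam, Ednrb, Ngfr, Dcn and Stmn2 were chosen after their values were seen. Alternatives were the replicate block, quantile normalization anew, arrays centred on their median or 75th percentile, tests without the dimmest 25% or 50% of genes, other probe set rules, trend and robust fitting, array weights, and leaving out each array.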

Additional observations from a re-analysis of the deposited data

How the results depend on the processing

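With the replicate number as a block, Btc had adjusted p = 0.0511 (log2 change -0.59), and 472 genes were called against 618; Egfr and Met passed. Of the other named genes that were called, Dusp5 (adjusted p = 0.0566), Acta2 (0.0996), Snap25 (0.0849) and Myocd (0.0589) did not pass with the block. Deviations of same-numbered arrays correlated at 0.18, 0.02 and 0.00017 over genes, and T3 replicate 2 correlated best with control replicate 3, so the numbers are not known to pair the samples. Centred on array medians, Btc changed by -0.56 (adjusted p = 0.0579). Tgfa passed, as the 1 gene of the family called higher, without the dimmest 50% of genes (0.39), with trend and robust fitting (0.39) and with array quality weights (0.33); the cause was not tested. Array weights were uneven among the controls (6.18, 0.414 and 0.421 for replicates 1, 2 and 3). They called 2451 genes higher and 1097 lower, and 6 and 10 pathway genes, against 454, 164, 2 and 4. Trend and robust fitting called 261 lower. Without the dimmest 50% of genes, which tests fewer genes, 1 pathway gene was called higher. The sign of Egf turned with 75th percentile centring (-0.0061) and array weights (-0.092), that of Hbegf with array weights (-0.031) and that of Ereg with renewed quantile normalization (0.0041) and array weights (0.061). Without 1 array, 1 to 3 of the family were called lower and 0 higher, 0 to 2 pathway genes higher and 0 to 3 lower, and 134 to 516 genes higher and 57 to 124 lower, with fewest without control replicate 1. The log2 changes then ran from -0.85 to -0.66 for Met, -0.68 to -0.44 for Btc, -0.084 to 0.11 for Egf, -0.070 to 0.10 for Hbegf and -0.12 to 0.032 for Ereg. Signal over background is not known for Erbb4, Egf and Ereg.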
